A study of Mus musculus with 12 samples.

Results

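The transcripts described here encode the proteins that coat lipid droplets and the proteins that make the droplets grow in mouse adipocytes. They are the 5 perilipins (Plin1, Plin2, Plin3, Plin4 and Plin5), the fusion factors Cidea and Cidec, and Fitm2, Hilpda and Bscl2. They were chosen by gene symbol, with earlier results of these data known, as 10 of the 55573 genes counted. Of them 9 had enough reads to be tested. Cidea had not, and is given as counts. RNA came from the stromal vascular fraction (SVF) of inguinal fat of C57BL/6 mice, cultured to confluence, induced for 4 days with insulin, triiodothyronine, IBMX, dexamethasone and indomethacin, kept on insulin and triiodothyronine, and harvested on day 8. The nuclear receptor PPARγ was wild type (WT), T166A (TA, a residue that cannot be phosphorylated) or T166D (TD, an acidic residue that mimics phosphorylation). Both mutations were homozygous and carried by every cell of the knock-in mice, and each genotype had 4 libraries. The labels do not say whether libraries of a genotype came from separate animals or cultures, so the p-values measure the spread between these libraries, which may be technical.

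A lipid droplet is a core of triglyceride under a single layer of phospholipid, and perilipins sit on that layer and decide how far lipases reach the core. New droplets bud from the endoplasmic reticulum with the help of FIT2 (Fitm2) and seipin (Bscl2), and CIDE proteins at the contact of neighbouring droplets pass lipid from the smaller to the larger one. In white adipocytes perilipin 1 and Cidec accompany the single large droplet, and Plin1, Plin2, Plin4 and Cidec are textbook targets of PPARγ.

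The 12 libraries held 16553324 to 20324286 counts each, and levels are given as CPM, counts scaled to 1000000 of the normalized library size. The cultures had adipocyte RNA in all genotypes: the 10 adipocyte markers (Fabp4, Lpl, Adipoq and others) summed to between 20200 and 22595 CPM in WT, 18737 and 23210 CPM in TA, and 14074 and 16192 CPM in TD. The summed preadipocyte and fibroblast markers reached 11102 to 15080 CPM in WT, 12188 to 22052 CPM in TA and 18907 to 28316 CPM in TD, with Dlk1 at 0 in WT and TD. The summed skeletal muscle markers were 5.40 to 11.99 CPM in WT, 17.4 to 69.9 CPM in TA and 18.2 to 262 CPM in TD, highest in TD replicate 3, and Myod1 and Myog were at 0 in WT. Endothelial markers summed to 23.7 to 50.6 CPM, 45.2 to 79.7 CPM and 92.2 to 117 CPM in WT, TA and TD, and macrophage markers to 263 to 765 CPM, 127 to 559 CPM and 590 to 826 CPM. The part of these markers in the results on droplet genes was not tested, and in bulk RNA fewer adipocytes and less RNA per adipocyte cannot be told apart.

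In TD adipocytes, 7 of the 9 tested genes fell against WT and none rose, whereas 14.2% of the 15117 genes tested fell and 15.1% rose. The genes that fell were Plin1, Plin2, Plin4, Plin5, Cidec, Fitm2 and Bscl2, and in each the 4 TD libraries lay below the 4 WT libraries, a pattern shown by 16.4% of all genes, with 15.8% wholly above. The median log2 fold change was -0.43 over the 9 genes and 0.01 over all genes tested. No gene passed upward at an unadjusted p under 0.05 either (0 genes), and DESeq2 also called 0 higher. In TA adipocytes Plin2 and Cidec passed the test against WT among the 9 genes, and both rose. TD replicates 3 and 4 held the most muscle marker RNA, and also the highest preadipocyte sums and the lowest adipocyte sums of all libraries. With both left out together after the data were seen, 4 of the genes that fell were still called lower in TD against WT (Plin2, Plin5, Cidec and Fitm2). Of all genes 4.33% were called lower in that fit of fewer libraries. The fold changes of the genes that lost the call moved little, to -0.35 for Plin1 (adjusted p = 0.101), -0.43 for Plin4 (0.132) and -0.29 for Bscl2 (0.127).

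**Figure D1:**
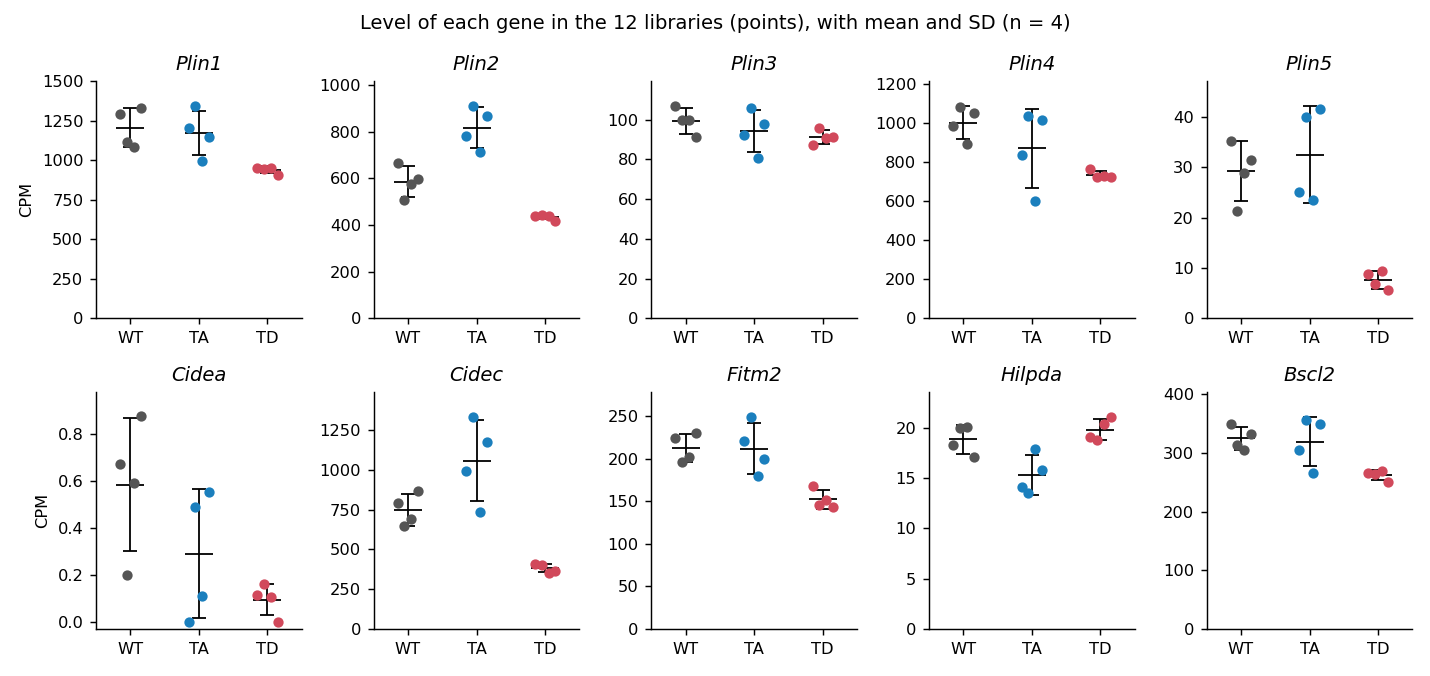
Level of each gene in CPM (vertical axis, from 0) in the WT, TA and TD libraries (points), with the mean and SD of each genotype (black, n = 4). TD points lie below all WT points for Plin1, Plin2, Plin4, Plin5, Cidea, Cidec, Fitm2 and Bscl2, and TA points lie above all WT points for Plin2.

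The constitutive coat of the adipocyte droplet was read first. Plin1 encodes perilipin 1, which holds back lipolysis in the resting fat cell and releases the lipase co-activator Abhd5 when it is phosphorylated. Its level was 1289.9, 1117, 1085 and 1332 CPM in WT replicates 1 to 4, and 1204, 1339, 997 and 1146 CPM in the TA replicates. In TD it was 949.9, 946, 951 and 906 CPM. The TD libraries were nearly alike and below each library of the other genotypes, and WT and TA overlapped. Plin1 fell by 0.36 on the log2 scale in TD against WT (SE 0.0951, adjusted p = 0.00934), to 77.8% of the WT level. It also fell by 0.32 in TD against TA (adjusted p = 0.0299), a call that was lost without any single TD replicate or without TA replicate 1, 2 or 4 (adjusted p = 0.0503 to 0.109) and with scaling by library totals alone (adjusted p = 0.0589). TA and WT differed by -0.04, with a 95% interval from -0.24 to 0.16.

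Plin4 encodes the perilipin with the long repeat of amphipathic helices, which covers small, young droplets in fat cells. Its level was 984, 1083, 896 and 1051 CPM in WT and 766, 723, 728 and 726 CPM in TD. TA spread more widely, with 837, 1036, 601 and 1018 CPM, and its replicate 3 was the lowest of the 12 libraries. Plin4 fell by 0.45 on the log2 scale in TD against WT (SE 0.130, adjusted p = 0.0165). TD against TA gave -0.25 (adjusted p = 0.211), and without TA replicate 3 the difference was -0.39 and passed (adjusted p = 0.00558). TA against WT gave -0.20, with an interval from -0.48 to 0.07.

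Plin2 encodes the perilipin found on droplets of nearly every cell type, whose protein is stable only on lipid. It was the only perilipin with separate levels in all 3 genotypes. WT libraries held 666, 508, 575 and 595 CPM, TA libraries 782, 908, 712 and 868 CPM, and TD libraries 438, 443, 439 and 419 CPM. The lowest TA library lay above the highest WT library, and the highest TD library below the lowest WT library. In TA Plin2 rose by 0.48 on the log2 scale (SE 0.0920, adjusted p = 0.00277), to 139% of WT. Of all tested genes 6.72% rose in TA, and 7.71% had TA libraries wholly above the WT libraries. Plin2 fell by 0.43 in TD against WT (adjusted p = 0.00254) and fell by 0.91 in TD against TA (SE 0.0926, adjusted p = 1.03e-05), and its calls held in every alternative run.

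Plin3 encodes a widely expressed perilipin that moves between the cytosol and forming droplets. It ran from 91.1 to 107 CPM in WT, 80.5 to 106 CPM in TA and 87.2 to 95.7 CPM in TD, so the genotypes overlapped throughout. None of its comparisons passed. TD against WT was -0.12, with an interval from -0.29 to 0.05, which still holds a fall of that lower bound.

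Plin5 encodes the perilipin of oxidative tissues, which ties droplets to mitochondria. Of the 9 genes it had the largest fold change in TD against WT. Its level was 35.2, 21.3, 28.9 and 31.5 CPM in WT and 25.0, 40.0, 23.5 and 41.5 CPM in TA. In TD it was 8.74, 6.74, 9.31 and 5.57 CPM, from 95 to 175 reads per library. Plin5 fell by 1.94 on the log2 scale in TD against WT (SE 0.213, adjusted p = 5.67e-05), to 26.1% of the WT level, the 19th lowest fold change of the 15117 genes. It fell by 2.09 in TD against TA (SE 0.214, adjusted p = 1.09e-05). TA libraries lay on both sides of WT, and the difference was 0.15 with an interval from -0.26 to 0.57. Plin4 and Plin5 are neighbours on chromosome 17 (GRCm38, both on the minus strand), 1797 bases apart with no gene between, and the neighbours fell in TD by unequal amounts.

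The CIDE proteins enlarge droplets by lipid exchange. Cidec, the white fat member also known as Fsp27, was the most abundant of the 10 transcripts per length in WT. WT libraries held 791, 644, 688 and 866 CPM, TA libraries 994, 1330.5, 733 and 1173 CPM, and TD libraries 409, 401, 353 and 364 CPM. Each TD library was below each WT library, and TA replicate 3 lay within the WT range while the other TA libraries lay above it. Cidec fell by 0.97 on the log2 scale in TD against WT (SE 0.144, adjusted p = 0.000233), to 51.1% of WT, and fell by 1.47 in TD against TA (SE 0.146, adjusted p = 9.09e-06). In TA it rose against WT by 0.50 (SE 0.143, adjusted p = 0.0320). That rise was lost when only WT and TA were fitted (adjusted p = 0.0674) and without WT replicate 1 (0.0603), WT replicate 2 (0.0872), WT replicate 3 (0.0900), TA replicate 1 (0.0537), TA replicate 2 (0.0846) or TA replicate 4 (0.0870), at fold changes from 0.37 to 0.53.

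Cidea, the family member of brown and beige fat, was close to absent. Its counts were 13, 4, 12 and 16 in WT, 0, 8, 2 and 10 in TA, and 2, 3, 2 and 0 in TD, against 6212 to 21635 counts of Cidec in the same libraries. TD counts lay below those of WT, and TA overlapped both. Summed over 4 libraries these were 45, 20 and 7 counts. Per total counts, without normalization, the rate in TD was 0.176 of that in WT (exact 95% interval 0.0670 to 0.393, counting error only). A count of 0 allows up to 0.168 CPM in TA replicate 1 and 0.181 CPM in TD replicate 4. When no filter on low counts was used, the log2 fold change of Cidea was -2.52 in TD against WT and -1.01 in TA against WT. That fit gave far smaller p-values at nearly equal fold changes. Plin5 in TD against WT, for example, had an adjusted p of 1.84e-54 there and 5.67e-05 in the reported analysis. Its p-values for Cidea are therefore not comparable with the others and are not given. Where leaving out libraries let Cidea through the filter, it passed on its WT libraries, the group where it is highest. Filter and comparison then draw on the same values, so those fits are not read as tests of Cidea. Their log2 fold changes in TD against WT included -2.55 without TD replicate 3, -2.14 without TD replicate 4 and -2.03 without both.

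**Figure D2:**
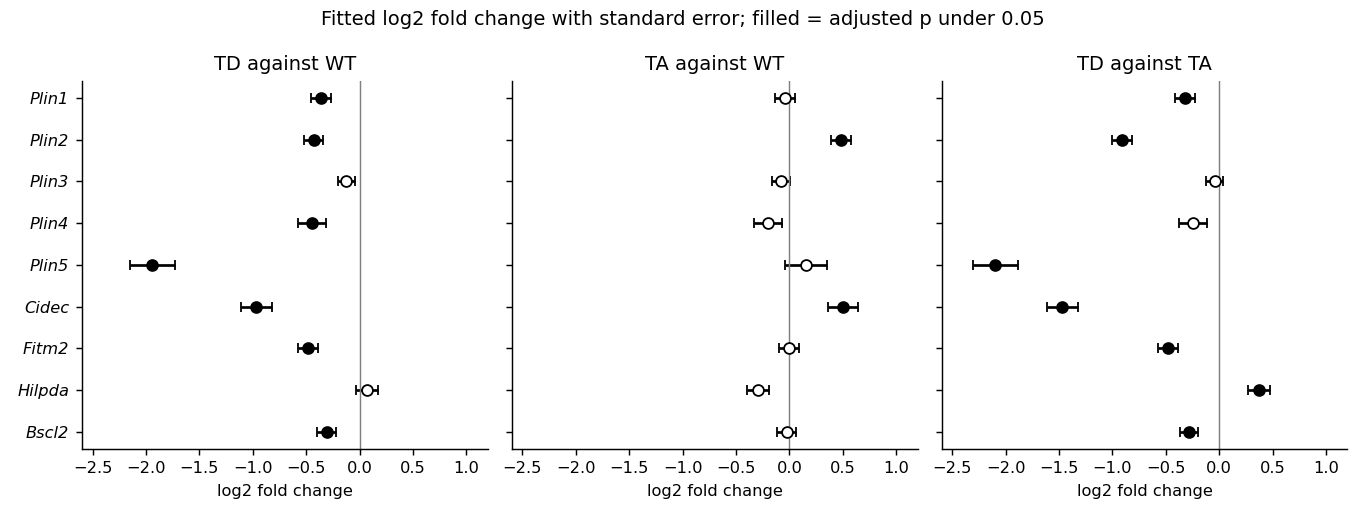
Fitted log2 fold change (horizontal axis) of the 9 tested genes in TD against WT, TA against WT and TD against TA, with bars of 1 standard error. Filled points have an adjusted p under 0.05. Plin5 and Cidec lie farthest to the left in TD against WT, at -1.94 and -0.97, and Plin2 and Cidec are the filled points in TA against WT.

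The sequence upstream of the 3 genes with the largest changes in TD against TA is shown because PPARγ acts at DNA and because the study placed a chromatin immunoprecipitation primer at Cidec. The stretches are from RefSeq (GRCm38.p6), each on the minus strand of the chromosome and written 5′ to 3′ toward the first base of the gene. Cidec is chr6:113435761-113436010, with the site of the forward primer in capitals, 167 to 148 bases before the start. That primer matches the opposite strand, so its reverse complement is printed. The reverse primer was not found in the promoter windows described below, so the stretch need not hold the whole amplified fragment. Plin5 is chr17:56117597-56117798 and Plin2 is chr4:86670061-86670309, with the nuclear receptor half-site AGGTCA in capitals (read as TGACCT where it lies on the other strand). The genes span chr6:113424634-113435760 (Cidec), chr17:56111601-56117596 (Plin5) and chr4:86648386-86670060 (Plin2) in GENCODE M21, so the stretches lie outside their annotated exons. No chromatin data were analysed here.
Cidec: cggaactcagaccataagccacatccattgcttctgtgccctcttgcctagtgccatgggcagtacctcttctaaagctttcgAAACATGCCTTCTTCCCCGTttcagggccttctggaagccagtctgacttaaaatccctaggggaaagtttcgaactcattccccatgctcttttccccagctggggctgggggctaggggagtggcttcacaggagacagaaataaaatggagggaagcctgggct
Plin5: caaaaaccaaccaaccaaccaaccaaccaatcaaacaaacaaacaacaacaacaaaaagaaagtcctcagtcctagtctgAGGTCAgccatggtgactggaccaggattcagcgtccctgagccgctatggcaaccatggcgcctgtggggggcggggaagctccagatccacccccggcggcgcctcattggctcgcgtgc
Plin2: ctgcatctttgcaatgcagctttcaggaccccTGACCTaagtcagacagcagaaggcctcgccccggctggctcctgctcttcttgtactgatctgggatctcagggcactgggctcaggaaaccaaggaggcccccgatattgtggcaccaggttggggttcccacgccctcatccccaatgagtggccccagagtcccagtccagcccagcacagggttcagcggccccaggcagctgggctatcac
Promoter windows of 250 bases before and 50 after the start were found for 9 of the 10 genes, as 14 windows, and searched on both strands. The full response element AGGTCANAGGTCA was in 0 of the 14 windows and in 0.0396% of the 32851 windows of all genes. The half-site, which the full element contains in tandem, was in 4 of the 14 windows (1 of Plin2, 1 of Bscl2 and 2 of Plin5) and in 16.3% of all windows. The hypoxia core ACGTG was in 2 windows (Plin2 and Hilpda) and in 19.6% of all. A match is a description of the letters, and more distant elements were not looked at.

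Genes for budding and growth of droplets were read next. Fitm2 encodes FIT2, an endoplasmic reticulum enzyme needed for droplets to bud toward the cytosol. It held 224, 196, 201 and 229.6 CPM in WT, 220.0, 249, 179 and 199 CPM in TA and 167, 146, 152 and 143 CPM in TD. The TD libraries lay below all others. Fitm2 fell by 0.49 on the log2 scale in TD against WT (SE 0.0951, adjusted p = 0.00142) and fell by 0.48 in TD against TA (adjusted p = 0.00302), and TA against WT was -0.01, with an interval from -0.21 to 0.19.

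Bscl2 encodes seipin, the ring-shaped protein at the neck of the growing droplet. It held 349.6, 313, 305 and 332 CPM in WT, 305, 356, 266 and 349 CPM in TA and 266, 264, 269 and 251 CPM in TD. TD lay below WT, and overlapped TA at the latter's replicate 3. Bscl2 fell by 0.31 in TD against WT (SE 0.0872, adjusted p = 0.0141), which missed the threshold without WT replicate 1 (-0.27, adjusted p = 0.0528). It fell by 0.28 in TD against TA (adjusted p = 0.0353), a call lost without any single TD replicate or without TA replicate 1, 2 or 4 (adjusted p = 0.0546 to 0.134), with TD and TA fitted alone (0.0555) and with library totals (0.0877). TA against WT was -0.03, with an interval from -0.21 to 0.16.

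Hilpda encodes a small hypoxia-inducible protein that inhibits the lipase Pnpla2. It was the only one of the 9 genes with a mean level higher in TD than in TA. WT libraries held 18.3, 19.96, 20.1 and 17.0 CPM, TA libraries 14.1, 13.5, 17.9 and 15.8 CPM, and TD libraries 19.1, 18.8, 20.4 and 21.0 CPM. TD lay above TA without overlap, and WT overlapped both. Hilpda rose in TD against TA by 0.37 (SE 0.103, adjusted p = 0.0227), and lost the call without TA replicate 1 (adjusted p = 0.0646), TA replicate 2 (0.0800), TD replicate 3 (0.0644) or TD replicate 4 (0.0731). TA against WT was -0.30 (adjusted p = 0.0765), and passed without TA replicate 3 (-0.38, adjusted p = 0.0278). TD against WT was 0.07, with an interval from -0.14 to 0.29.

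By comparison, TD against TA had 6 genes lower and 1 higher of the 9, where 9.37% of all tested genes were lower and 7.33% higher. In 5 genes the TD libraries lay wholly below those of TA, as in 10.6% of all genes, and in Hilpda wholly above, as in 9.32%. In TA against WT 2 of the 9 genes were called higher and 0 lower, with 4.41% of all genes lower and 5.85% wholly below WT. At an unadjusted p under 0.05, 1 gene (Hilpda) was lower, and DESeq2 called 0. The median log2 fold change in TA against WT was -0.03 over the 9 genes and -0.01 over all.

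The libraries of a genotype differed in a shared direction for several genes. In TA, replicate 3 was the lowest of its genotype in 8 of the 9 genes and the highest for Hilpda, and it had the lowest adipocyte sum (18737 CPM) and the highest preadipocyte sum (22052 CPM) of the TA libraries. TA replicate 2 was the highest in 7 genes, and had the highest adipocyte sum of its genotype (23210 CPM). Among the WT libraries, replicate 2 was the lowest in 4 genes (Plin2, Plin5, Cidec and Fitm2), and had the highest preadipocyte sum of WT (15080 CPM), but it was the highest for Plin4. WT replicate 3 was the lowest in 3 genes, and had the lowest adipocyte sum of WT (20200 CPM). In TD, replicate 4 was the lowest in 5 genes (Plin1, Plin2, Plin5, Fitm2 and Bscl2) and the highest for Hilpda. It had the lowest adipocyte sum (14074 CPM) and the highest preadipocyte sum (28316 CPM) of all libraries. TD replicate 3, with the next highest preadipocyte sum (25839 CPM), was however the highest of TD in 3 genes (Plin1, Plin5 and Bscl2).

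**Figure D3:**
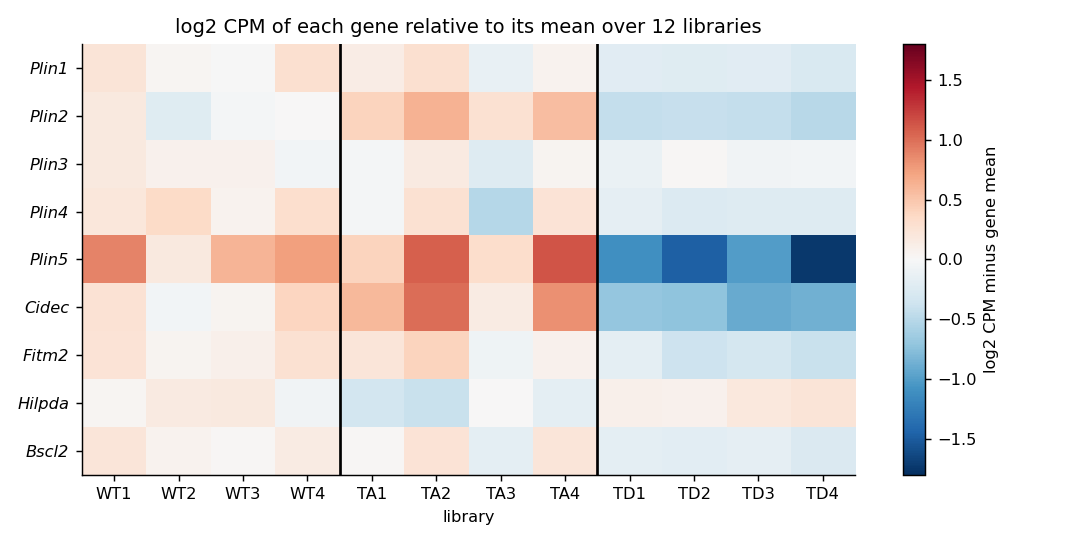
log2 CPM of each tested gene minus its mean over the 12 libraries (colour, blue below and red above the mean), by gene (rows) and library (columns), with black lines between genotypes. All 4 TD columns are below the mean for Plin1, Plin2, Plin4, Plin5, Cidec, Fitm2 and Bscl2, and farthest below for Plin5 and Cidec. TA replicate 3 is paler or bluer than the other TA libraries in most rows.

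Each gene was also divided by the summed adipocyte markers of its library, a measure added after the data were seen. Fabp4 and Lpl make up 37.7% and 33.6% of that sum, and 8 of the 10 markers themselves fell in TD. Pparg, the mutated gene, is among the markers that fell. Whether the sum follows the adipocyte content of the cultures or the genotype itself was not tested. The sum in TD was 71.9% of that in WT, and in TA 98.9%. In TD the mean levels of Plin1, Plin2, Plin4 and Fitm2 were 77.8%, 74.1%, 73.3% and 71.4% of WT, near the sum. That of Bscl2 was 80.7%, above it, whereas those of Cidec and Plin5 were 51.1% and 26.0%. Relative to the sum, Plin1, Plin2, Plin4 and Fitm2 overlapped between TD and WT. Plin5 and Cidec stayed lower without overlap, at 36.2% and 71.2% of the WT value, where 1.73% of all tested genes were lower. Plin3, Hilpda and Bscl2 were higher without overlap, as were 60.1% of all tested genes. In TA against WT, Plin2 stayed higher without overlap at 141% of the WT value, as did 6.34% of all genes, and the other 8 genes overlapped (0 lower, against 5.95% of all genes). In TD against TA, Plin2, Plin5 and Cidec were lower without overlap, as were 1.45% of all genes, and Plin3, Hilpda and Bscl2 higher, as were 53.4%.

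**Figure D4:**
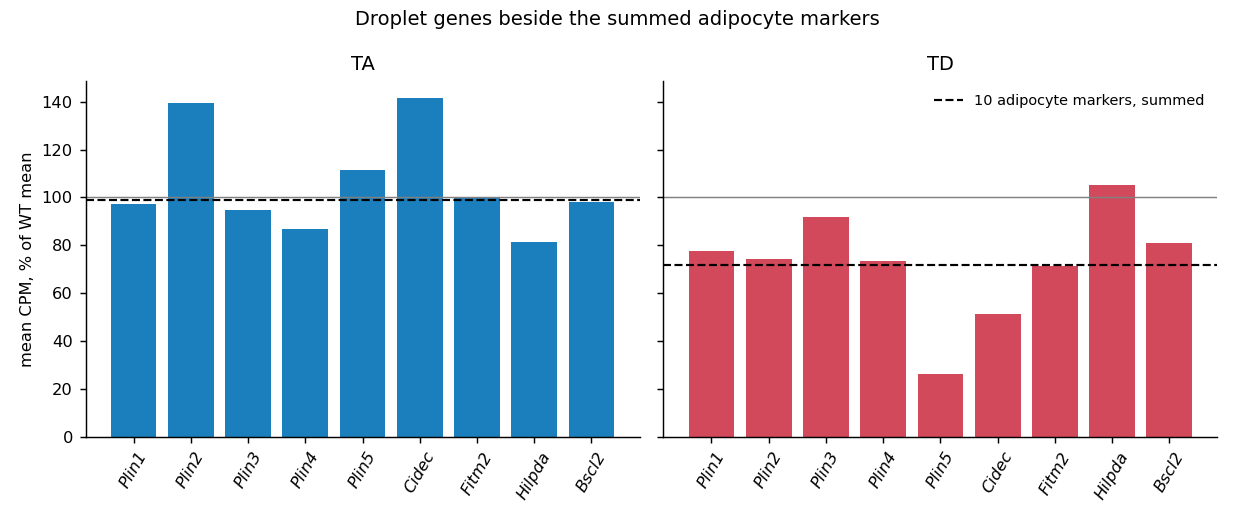
Mean CPM of each tested gene as a percentage of its WT mean (bars, from 0) in TA and TD, with the summed 10 adipocyte markers on the same scale (dashed line, 98.9% in TA and 71.9% in TD) and the WT level (grey line). In TD the bars of Plin5 (26.0%) and Cidec (51.1%) end well below the dashed line.

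Transcripts were compared with each other only per length, as CPM per kilobase of merged exons. In WT Cidec led with 403 ± 53.9 CPM per kb (SD, n = 4), followed by Plin1 at 259 ± 26.4. Plin4 (174 ± 14.3) and Plin2 (167 ± 18.5) overlapped, as did Bscl2 (55.1 ± 3.37) and Fitm2 (53.6 ± 4.16). Plin3 stood at 26.2 ± 1.68, Hilpda (17.1 ± 1.31) and Plin5 (14.0 ± 2.83) overlapped, and Cidea came last with 0.526 ± 0.255 CPM per kb. In TA the order was kept except that Plin2 (233 ± 25.0) moved above Plin4 (151 ± 35.0), where it overlapped Plin1 (252 ± 30.5), and Plin5 and Hilpda, which overlapped, changed places. In TD Cidec (206 ± 14.6) and Plin1 (202 ± 4.65) overlapped, and Plin5 (3.64 ± 0.835) lay well below Hilpda (18.0 ± 0.980).

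The makeup of the perilipins per length was described without a test. The 5 perilipins summed to 640 ± 46.1, 676 ± 93.3 and 481 ± 9.70 CPM per kb in WT, TA and TD. Plin2 made up 26.1% ± 1.99 of that sum in WT, 34.6% ± 1.46 in TA and 25.7% ± 0.271 in TD. Plin1 made up 40.5% ± 1.36, 37.4% ± 2.10 and 42.0% ± 0.241, Plin4 27.2% ± 2.52, 22.1% ± 2.48 and 26.5% ± 0.618, Plin3 4.11% ± 0.396, 3.68% ± 0.108 and 5.01% ± 0.231, and Plin5 2.18% ± 0.351, 2.27% ± 0.435 and 0.755% ± 0.163. In TA the share of Plin2 (33.5% to 36.6%) lay wholly above that in WT (23.8% to 27.8%), and the shares of Plin1 (34.5% to 39.1%, against 39.4% to 42.3%) and Plin4 (18.8% to 24.6%, against 25.0% to 30.8%) wholly below. In TD the share of Plin5 (0.572% to 0.922%) lay wholly below that in WT (1.67% to 2.47%), and that of Plin3 (4.71% to 5.23%, against 3.56% to 4.45%) wholly above. Shares of a sum move together, so a higher share of one perilipin lowers the others.

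**Figure D5:**
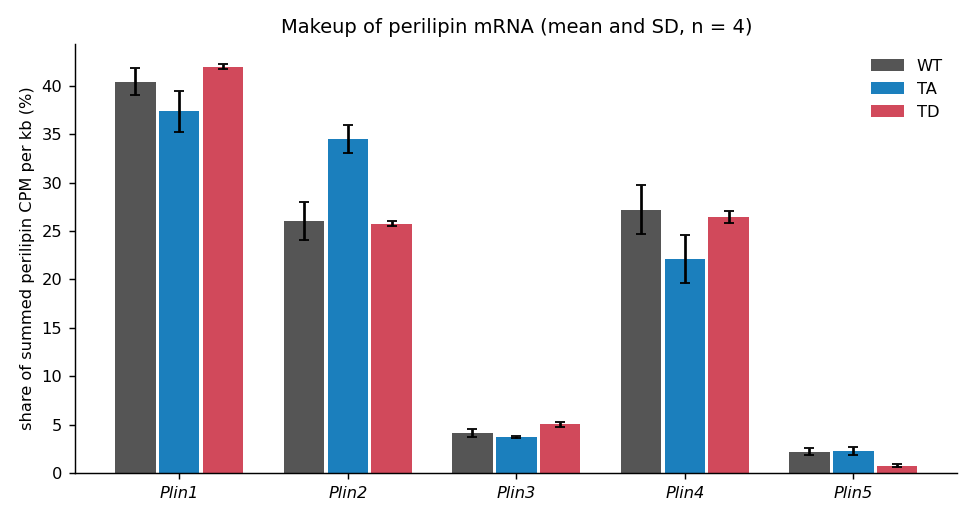
Share of each perilipin in the summed CPM per kb of the 5 perilipins (vertical axis, percent, from 0) in WT, TA and TD, with bars for the mean and whiskers for the SD (n = 4). The Plin2 bar of TA (34.6%) stands above those of WT (26.1%) and TD (25.7%), and the Plin5 bar of TD (0.755%) is the lowest.

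The ratio of Plin2 to Plin1 counts within a library needs no scaling between libraries. Its log2 value was -0.95, -1.14, -0.92 and -1.16 in WT, -0.62, -0.56, -0.49 and -0.40 in TA, and -1.12, -1.09, -1.12 and -1.11 in TD. The TA libraries lay above all others, and TD lay within the WT range. The ratio was higher in TA than in WT by 0.52 (exact two-sided permutation p = 0.0286, adjusted over 3 comparisons 0.0429) and lower in TD than in TA by 0.59 (exact permutation p = 0.0286, adjusted 0.0429). TD and WT differed by -0.07 (exact permutation p = 0.429). With 4 libraries against 4 the smallest possible p is 0.0286. A ratio within a library shows unequal change of the pair, not which of them changed.

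Other genes of the droplet were read from 3 lists with 41 genes in the file, of which 39 were tested (Fitm1 and Hsd17b13 had at most 4 and 2 counts in a library). In TD against WT 14 of the 39 fell and 2 rose, in TA against WT 2 fell and 5 rose, and in TD against TA 13 fell and 1 rose, beside the shares of all genes given above. Of the 6 lipolysis genes 5 fell in TD against WT (Pnpla2, Lipe, Abhd5, G0s2 and Mgll) and 0 rose, with 0 at an unadjusted p under 0.05 and 0 by DESeq2, and in TA against WT 0 changed under any of these. Of the 8 triglyceride synthesis genes 4 rose in TA and 4 fell in TD against WT. Of the 25 genes for formation, contact and turnover of droplets, 5 fell and 2 rose in TD against WT. Of all tested genes 14.2% fell and 15.1% rose in that comparison.

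The largest changes of these lists were as follows. In TD against WT Aifm2, an oxidoreductase found on droplets, fell by 0.75 on the log2 scale (adjusted p = 0.000143) and Lpin1, the phosphatidate phosphatase lipin 1, by 0.68 (adjusted p = 0.000546). Rnf213, a ubiquitin ligase that binds droplets, rose by 0.89 (adjusted p = 0.0224) and Hsd17b11, a dehydrogenase of the droplet surface, by 0.21 (adjusted p = 0.0466), though DESeq2 called 0 of the 25 genes higher. In TA against WT the long-chain acyl-CoA synthetase Acsl1 rose by 0.64 (adjusted p = 0.00649) and the acyltransferase Gpat3 by 0.58 (adjusted p = 0.0124). Aifm2 also fell in TA, by 0.64 (adjusted p = 0.000666), and so did the phospholipase Pld1, by 0.44 (adjusted p = 0.00552). In TD against TA Acsl1 fell by 0.94 and Gpat3 by 0.81, and Pld1 was the only gene of the lists to rise, by 0.41 (adjusted p = 0.00732). Pparg itself held 354 ± 19.9, 374 ± 46.1 and 237 ± 24.2 CPM in WT, TA and TD (SD, n = 4), and fell by 0.58 in TD against WT (adjusted p = 0.000429). Both mutations are point mutations, so this level does not check the genotype labels.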

How the data were processed

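RNA sequencing of 12 libraries was used, 4 of each genotype, grouped by the genotype in the labels. The authors deposited raw read counts per gene for 55573 genes, and the 12 single-library files equalled the table. Per the labels, the submitters' notes name bcl2fastq 2.17.1.14, cutadapt 1.9.1, HISAT2 2.0.1, HTSeq 0.6.1 and GRCm38. The counting mode and strand setting are not given in the sources used here, so small overlaps with other genes (at most 6.7% of exon bases, for Bscl2) could not be separated. The genes and lists were chosen with earlier results of these data known.

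Counts were analysed in R 4.3.3 with edgeR 4.0.16 (filterByExpr, minimum count 10 and total 15, leaving 15117 genes; TMM factors 0.957 to 1.04). A quasi-likelihood model over genotype was fitted to all 12 libraries, with two-sided tests, Benjamini-Hochberg adjustment over all tested genes and a threshold of 0.05. In the text, adjusted p refers to this test, and 95% intervals use its degrees of freedom (16.3). CPM used TMM-normalized library sizes, and lengths came from GENCODE M21. All WT libraries (18823619 counts or more) were deeper than the mutant ones. Named genes were the 10 droplet genes and, of the other lists, the 2 largest called changes per direction and comparison. Genes of the lipolysis list and those named for likeness to Plin2, Cidec and Fitm2 were added after their values were seen. One gene that the rule on likeness names is not reported here. DESeq2 1.42.0, other scalings, no filter, 2 genotypes only, a replicate block and left-out libraries were alternatives. Same-numbered libraries did not deviate together (r from -0.237 to 0.196), so the numbers were not taken to pair them. On simulated data for TD against WT (14917 genes tested), 89% of 2-fold and 31.3% of 0.5 log2 changes were called, and 3.23% of calls were unchanged genes. The simulation changed only 200 genes and gave every gene the same spread. The real comparison called 2276 genes higher and 2142 lower, so the simulated shares do not carry over to it.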

Additional observations from a re-analysis of the deposited data

Results flagged for a closer look

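Among 30 combinations of gene and genotype, 2 held a library far from the other 3, and chance gives about 1 in 20. Plin1 in TD was 906 CPM in replicate 4 against 946 to 951 CPM in the others. Plin4 in TD was 766 CPM in replicate 1 against 723 to 728 CPM. Both gaps stand out because the other TD libraries were nearly equal, and both values remain below every WT library.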

How the results depend on the processing

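Over 19 alternatives, none of the 16 called differences of single genes changed direction, and 8 of the 16 passed in every alternative. With TD replicates 3 and 4 left out together (chosen after the data were seen), the counts of droplet genes were 4 lower in TD against WT, and 3 lower and 0 higher in TD against TA, and those of all genes 837 higher and 679 lower in TD against WT, and 186 higher and 448 lower in TD against TA. When only WT and TA were fitted, 1 droplet gene was called higher. With library totals alone 1802 genes, and without a filter on low counts 1681 genes, were higher in TD against TA (1108 in the reported analysis). Leaving out 1 library gave 1 to 2 droplet genes higher and 0 to 1 lower in TA against WT (1 without TA replicate 3, Hilpda), and 0 to 1 higher in TD against TA. It gave 542 to 1770 genes higher and 843 to 1756 lower in TD against TA. The Plin2 to Plin1 log2 ratio then ran from 0.48 to 0.57 in TA against WT and from -0.63 to -0.55 in TD against TA, and the exact permutation p of 3 libraries against 4 cannot pass 0.05. The cause of these changes was not tested, beyond the fewer libraries. Differences that missed the threshold and changed sign were Plin3 in TD against TA, 0.0353 with library totals alone, and, with 1 library left out, Plin3 in TD against TA (-0.113 to 0.0212) and, in TA against WT, Plin1 (-0.116 to 0.0285), Fitm2 (-0.0957 to 0.0664) and Bscl2 (-0.0848 to 0.0525). With replicate number as a block, the counts of droplet genes called were equal to those reported, and the ratio kept its values (0.52 in TA against WT, -0.59 in TD against TA) at an exact permutation p of 0.125, the smallest that 4 pairs allow. Of the libraries, 2 of 12 correlated best with one of their own number. Library totals in place of TMM moved the median of all genes by less than 0.1 on the log2 scale. Depth limits Cidea to counts.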

Other observations

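The genes whose profile over the 12 libraries was most like that of a droplet gene were found by the root mean square difference of log2 CPM, each gene centred on its mean, among 10548 genes. The points share libraries and genotypes, so likeness is a description. For Plin5 they included Scd3, a stearoyl-CoA desaturase (difference 0.328), and Elovl3, a fatty acid elongase (0.362). Elovl3 averaged 32.9 ± 11.01 CPM in WT, 50.4 ± 7.22 in TA and 7.51 ± 1.31 in TD (SD, n = 4). For Plin1 they were Aco1, a cytosolic aconitase and iron-regulatory protein (0.0446), Pex19, which brings membrane proteins to peroxisomes (0.0475), and Nfu1, an iron-sulfur scaffold protein (0.0488).

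For genes added after their values were seen, Cidec was most like Fabp5, a fatty acid binding protein (0.146), Plin2 most like the adiponectin receptor Adipor2 (0.0888), and Fitm2 most like Letm1, a protein of the inner mitochondrial membrane (0.0513), followed by Emc6, of a complex that inserts membrane proteins (0.0609), and the fatty acid transporter Cd36 (0.0666). Fabp5 averaged 976 ± 191, 1312 ± 145 and 549.7 ± 36.1 CPM in WT, TA and TD. Among the droplet genes themselves Plin1 and Bscl2 were the closest pair (0.0731) and Plin5 and Hilpda the farthest (1.13).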
